A study of Mus musculus with 8 samples.

Results

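The genes described here are 10 imprinted genes that act on growth: Cdkn1c, Plagl1, Grb10, H19, Dlk1, Sgce, Peg10, Ndn, Peg3 and Mest. They were chosen by name, as the 10 of 24015 gene symbols in the table of normalized counts, and were followed over all 8 libraries. The cells were cardiac fibroblasts, the matrix-producing cells of the heart, from wild-type C57BL/6J mice aged 8 weeks. One group of 2 libraries was taken at day 0, before any osteogenic differentiation medium was added, and groups of 2 were taken at day 7, day 14 and day 21 in that medium. Strain, genotype and age were the same in all 4 groups. Every later library analysed here was in the medium, so the medium and the time in culture cannot be told apart. Nothing in the labels tells if both libraries of a day came from separate cultures or mice. The p-values therefore reflect the spread between these particular libraries alone, and that spread may be technical.

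An imprinted gene is transcribed mainly from the copy inherited from 1 parent. The maternal and paternal copies differ in marks that were set in the egg or the sperm, chiefly DNA methylation at a control region. Imprinted genes tend to sit in clusters in which a paternally and a maternally expressed gene are read from opposite chromosomes, and many of them push or brake growth of the fetus and placenta. Transcripts of many of them fall in most tissues after birth. The libraries give a gene's total transcript level and do not separate the parental copies, so imprinting itself was not measured. A normalized count is the number of reads assigned to a gene divided by 1 size factor per library. It can be compared between days for 1 gene, and between genes only after division by transcript length.

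The libraries held 13399313 to 21883498 assigned reads. A gene was tested if 2 or more of the 8 libraries held 10 or more normalized counts, and 13527 were. Of the 10 imprinted genes, 9 passed that filter and Dlk1 did not. The lowest value of the 9 in any library was 23.1, so none of them passed only through the days at which it was high. The 2 libraries of a day differed more on day 14 and day 21 than before, with chi-square values per degree of freedom of 4.91 on day 0, 3.48 on day 7, 19 on day 14 and 18.6 on day 21. All 10 fibroblast markers, among them Col1a1, Pdgfra and Tcf21, were detected at every day. Of the 8 osteoblast markers 4 were tested. Against day 0, 2 of these were higher and 1 lower at day 7 and at day 14, and 3 higher and 0 lower at day 21. Of all tested genes, 55.4% were called against day 0 at day 7, 70.7% at day 14 and 59.4% at day 21, so a call was common. The sum of all 8 osteoblast markers lay between 2838 and 3172 normalized counts at day 0 and between 5433 and 6414 at day 7. It lay between 9993 and 11455 at day 14 and between 6463 and 9142 at day 21. Sp7 and Ibsp had no read in any library, and Phex had none at day 14 and day 21.

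Sequences before the annotated starts of these genes were also read. The 250 bases before the start of a gene were taken from RefSeq on build GRCm38.p6, which held 9 such windows for 6 of the 10 genes, without Cdkn1c, H19, Sgce and Peg10. Plagl1 and Grb10 are shown because their transcripts moved in opposite directions in the first week while the windows given are rich in CpG. CpG is the base pair step at which imprints are written as methylation. For Grb10 the first of its 2 windows is given. The other held 8 CpG at 54.0% GC, and which start these cells use was not measured. Capitals mark each CpG.
Plagl1, chr10:13090582-13090831, plus strand: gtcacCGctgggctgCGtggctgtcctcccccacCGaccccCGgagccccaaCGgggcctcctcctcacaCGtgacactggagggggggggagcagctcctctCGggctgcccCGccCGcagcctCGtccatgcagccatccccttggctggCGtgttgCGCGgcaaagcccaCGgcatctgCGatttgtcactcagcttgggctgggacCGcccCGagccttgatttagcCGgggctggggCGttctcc
Grb10, chr11:12037421-12037670, minus strand: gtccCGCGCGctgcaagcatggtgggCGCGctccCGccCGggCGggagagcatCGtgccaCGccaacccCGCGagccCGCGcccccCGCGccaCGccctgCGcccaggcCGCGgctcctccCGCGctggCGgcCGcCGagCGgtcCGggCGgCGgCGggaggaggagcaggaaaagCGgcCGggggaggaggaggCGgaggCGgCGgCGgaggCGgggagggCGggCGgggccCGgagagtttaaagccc
The Plagl1 window held 19 CpG at 70.4% GC, and the Grb10 window held 40 CpG at 81.2% GC. The median of 32851 windows was 6 CpG, and 98.69% of them held fewer than the Grb10 window. Of the 9 windows of imprinted genes, 8 lay above that median, and the exception was Ndn with 5 CpG. Of all windows, 53.7% held fewer than 7 CpG and so did not lie above it. Mest and Grb10 have more than 1 window each, and windows of Mest overlap, so the 9 are not separate cases. Some lay only just above the median, such as those of Peg3 and Dlk1 with 8 CpG each.

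Plagl1 protein is known to bind the GC-rich palindrome GGGGCCCC, and the window of Peg3 is shown because it was the only 1 of the 9 that held these letters, which are in capitals.
Peg3, chr7:6730420-6730669, minus strand: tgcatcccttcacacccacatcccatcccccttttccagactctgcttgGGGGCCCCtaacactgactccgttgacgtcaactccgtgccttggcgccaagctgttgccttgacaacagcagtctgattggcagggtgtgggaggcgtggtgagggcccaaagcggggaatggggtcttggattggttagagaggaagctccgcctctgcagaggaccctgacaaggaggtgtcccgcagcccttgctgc
Across all windows, 0.889% held GGGGCCCC. The other motifs searched, each on both strands, were the E-box CACGTG, in 6.02% of all windows and in the Plagl1 window, AGAACA, a half-site of the glucocorticoid receptor, in 16.1% of all windows and in 0 of 9, and the TATA box TATAAA, in 12.4% of all windows and in 0 of 9. These matches describe the letters only, and no binding or methylation was measured.

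H19 is a long noncoding RNA whose first exon is also the precursor of miR-675. Both mature arms, from RefSeq on GRCm38.p6, are shown with the seed, bases 2 to 8, in capitals, because the rise of H19 described further on concerns the host RNA alone. They lie on the minus strand at chr7:142577078-142577099 (3p) and chr7:142577112-142577133 (5p).
mmu-miR-675-5p: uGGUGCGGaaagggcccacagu
mmu-miR-675-3p: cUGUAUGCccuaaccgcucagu
The 2 seeds differ. Mature miRNAs were not measured. The precursor, whose 84 bases all lie within H19 exons on the same strand, was listed at 0 reads in all 8 libraries. How reads over both genes were counted is not stated, so the 0 does not show that the precursor was absent.

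Among the genes known as brakes on growth, Cdkn1c and Plagl1, both low at day 0, rose steeply in the first week, and Grb10 fell over the same week. H19 did not differ detectably from day 0 at day 7 and rose at day 14. Cdkn1c encodes p57Kip2, an inhibitor of cyclin-dependent kinases that holds cells in the resting state, and it is expressed from the maternal copy. Its 2 libraries held 23.1 and 24.8 normalized counts on day 0, 608 and 601 on day 7, 886 and 1101 on day 14, and 901 and 915 on day 21. Both libraries of day 0 lay far below all 6 later libraries, and day 7 lay below day 14 and day 21 without overlap. The log2 change from day 0 to day 7 was 4.60 ± 0.13 (SE), a 25.2-fold rise, with an adjusted p of 1.26e-10 (limma). From day 7 to day 14 it rose again by 0.71 ± 0.13 (adjusted p = 0.000719). Between day 14 and day 21 the difference was -0.12 and did not pass the test (adjusted p = 0.488). Day 21 lay 37.9-fold above day 0, and only 79 of the tested genes, 0.584%, had a larger absolute log2 change over that interval. Day 21 also lay above day 7 by 0.59 (adjusted p = 0.0152), a call that was lost without day 7 replicate 1 (adjusted p = 0.126), day 7 replicate 2 (0.139) or day 21 replicate 1 (0.0759). In these bulk libraries, more cells that express Cdkn1c and more Cdkn1c RNA per cell cannot be told apart. Of the 2039 exon bases of Cdkn1c, 625 are shared with an antisense transcript, Gm44732, and the strand of the libraries is not given in the sources used here, so reads of the pair could not be separated.

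Plagl1, also named Zac1, encodes a zinc-finger transcription factor that slows proliferation and is known to act on other imprinted genes. It is read from the paternal copy. It held 55.7 and 51.0 normalized counts on day 0, 803 and 837 on day 7, 444 and 296 on day 14, and 395 and 270.4 on day 21. Day 7 was the highest day and did not overlap with any other, whereas the ranges of day 14 and day 21 overlapped. The rise to day 7 was 15.4-fold, with a log2 change of 3.92 ± 0.20 (SE) and an adjusted p of 1.03e-08 in limma. It then fell by 1.18 on the log2 scale by day 14 (adjusted p = 0.000519) and did not differ detectably between day 14 and day 21 (-0.15, adjusted p = 0.601). At day 21 it was still 6.24-fold above day 0 (adjusted p = 2.89e-07) and 2.46-fold below day 7 (adjusted p = 0.00187). Plagl1 thus turned down after day 7, while Cdkn1c went on rising to day 14.

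Grb10 encodes an adaptor protein that binds the insulin and IGF-1 receptors and dampens their signalling, and outside the brain it is read mostly from the maternal copy. It held 2229 and 2318 normalized counts on day 0, 1555 and 1386 on day 7, 962 and 806 on day 14, and 1129 and 1289 on day 21. The 4 days did not overlap, with day 0 highest and day 14 lowest. It fell by 0.63 ± 0.11 (SE) on the log2 scale by day 7 (adjusted p = 0.000479) and by a further 0.74 from day 7 to day 14 (adjusted p = 0.00027, limma). The rise of 0.45 from day 14 to day 21 passed the test (adjusted p = 0.00984) but not without day 14 replicate 2 (0.33, adjusted p = 0.0633) or without day 21 replicate 2 (0.36, adjusted p = 0.0797). Day 21 stayed below day 0 by a log2 change of -0.91 (adjusted p = 2.00e-05) and did not differ detectably from day 7 (-0.28, adjusted p = 0.143).

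H19, transcribed from the maternal copy next to Igf2, restrains growth. It held 85.2 and 106 normalized counts on day 0, 114 and 82.9 on day 7, 302 and 351 on day 14, and 152 and 135 on day 21. Day 0 and day 7 overlapped, and both day 14 libraries lay above the other 6. The difference from day 0 to day 7 was 0.03 ± 0.19 (SE) on the log2 scale (adjusted p = 0.894). From day 7 to day 14 it rose 3.32-fold (log2 change 1.73, adjusted p = 3.90e-05, limma), and only 1.73% of tested genes had a larger absolute change in that step. It then fell by 1.18 on the log2 scale to day 21 (adjusted p = 0.00106). Day 21 was 1.50-fold above day 0 (adjusted p = 0.0159), a call that was lost without day 0 replicate 1 (log2 change 0.43, adjusted p = 0.137) or day 21 replicate 1 (0.50, adjusted p = 0.0909).

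**Figure D1:**
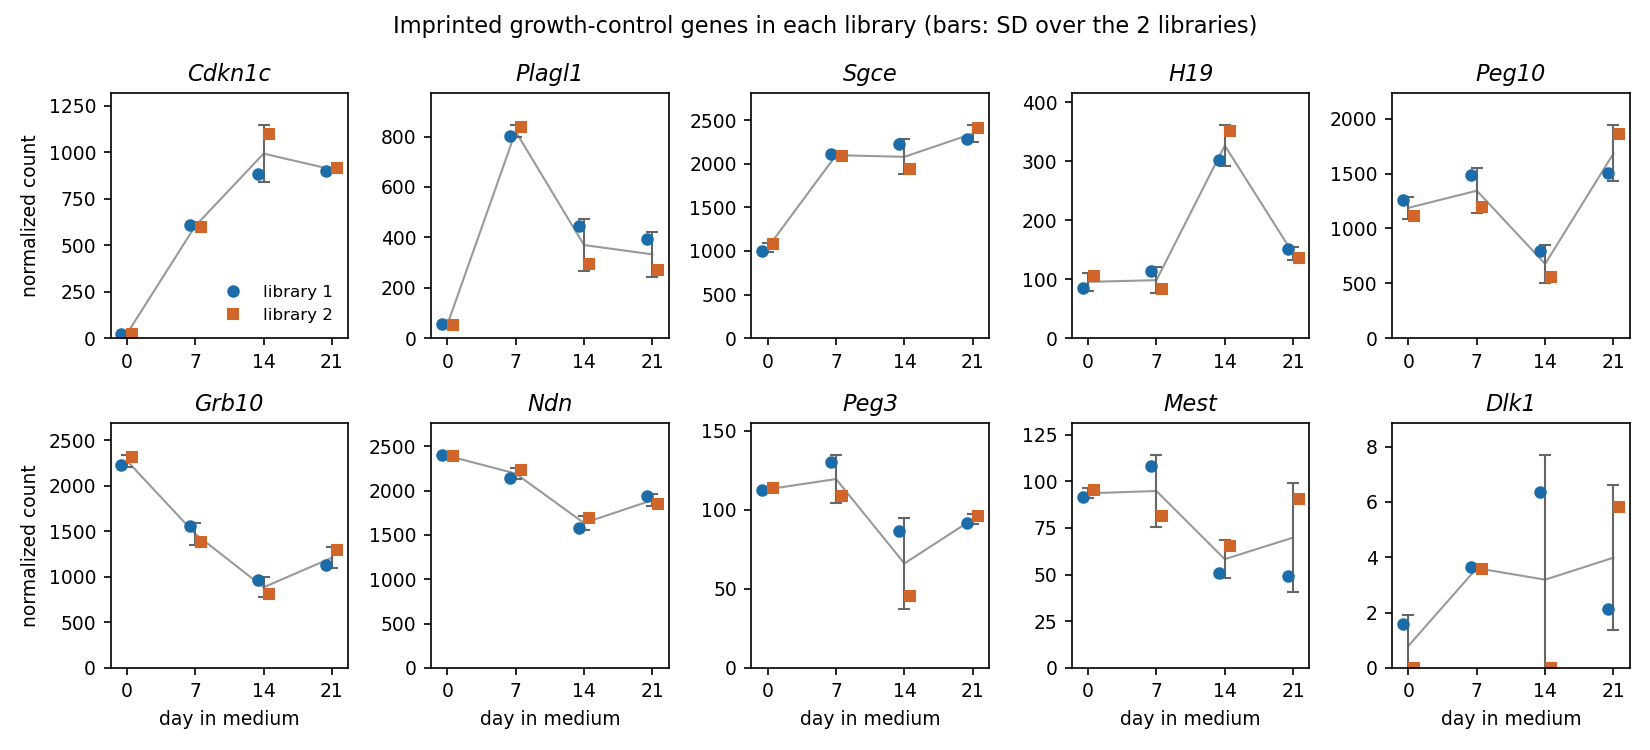
Normalized counts (vertical axes, linear, from 0, a scale of its own per gene) of the 10 imprinted growth-control genes against day in osteogenic medium. Circles are library 1, squares library 2, the line joins the means and the bars are SD over the 2 libraries. Cdkn1c goes from a mean of 24.0 counts at day 0 to between 886 and 1101 at day 14, Plagl1 is highest at day 7, H19 at day 14, and Dlk1 stays under 10 throughout.

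Markers of other cell types moved over the same days. The summed normalized counts of the macrophage markers, 11 of 12 in the table and none at 0, lay between 1100.3 and 1178 on day 0, between 9269 and 11505 on day 7, between 19957 and 37328 on day 14 and between 19302 and 19678 on day 21. Of those 11, 10 were higher on day 7 than on day 0, 11 on day 14 and 10 on day 21. Of all tested genes, 27.5% were higher than on day 0 on day 7, 35.2% on day 14 and 29.8% on day 21. The sum of the 10 adipocyte markers lay between 999 and 1275 on day 0, 8814 and 9127 on day 7, 12169 and 12917 on day 14, and 8045 and 8524 on day 21, with Adipoq, Plin1, Lep and Cidec at 0 reads on day 0 and Lep and Cfd at 0 on day 7. The sum of the 9 endothelial markers lay between 715 and 749 at day 0 and between 319 and 463 at day 21. Of these, 6 were lower at day 21 than at day 0, where 29.5% of all tested genes were lower. The sum of the 10 cardiomyocyte markers lay between 1137 and 1213 at day 0, between 22458 and 28813 at day 14 and between 5869 and 10597 at day 21, and all 3 tested ones were higher at day 14 and at day 21 than at day 0. Nearly all of that sum was Tnnt2, a troponin gene, with a mean of 1170.3 at day 0 and 25595 at day 14; Ryr2 went from 0 to 33 reads over those days, and Myh6, which defines cardiomyocytes, had no read in any library. The myoblast markers Myf5, Myod1 and Myog also had none. The part that these cell types have in the changes of Cdkn1c, Plagl1, Grb10, H19 and the genes that follow was not tested.

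Sgce and Peg10 are neighbours that start head to head and are both read from the paternal copy, yet their levels parted after day 0. Sgce encodes epsilon-sarcoglycan, a membrane protein of the dystrophin-associated complex. It held 1000.0 and 1076 normalized counts on day 0, 2106 and 2089.7 on day 7, 2220.3 and 1938 on day 14, and 2278 and 2411 on day 21. Both day 0 libraries lay below the other 6. It rose 2.02-fold by day 7 (log2 change 1.02 ± 0.10 (SE), adjusted p = 2.62e-06, limma) and was 2.26-fold above day 0 at day 21 (adjusted p = 5.31e-07). Its later steps were -0.02 from day 7 to day 14 (adjusted p = 0.903) and 0.18 from day 14 to day 21 (adjusted p = 0.178). Without day 14 replicate 1 the last step became 0.27 (adjusted p = 0.041).

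Peg10 encodes a retrotransposon-derived protein that the placenta needs. It held 1260.4 and 1115 normalized counts on day 0, 1490.3 and 1197 on day 7, 798 and 556 on day 14, and 1503 and 1864 on day 21. Day 14 was the lowest day and overlapped with none. From day 0 to day 7 the log2 difference was 0.17 ± 0.17 (SE) (adjusted p = 0.406). It fell by 1.00 on the log2 scale from day 7 to day 14 (adjusted p = 0.000457) and rose 2.49-fold from day 14 to day 21 (log2 change 1.33, adjusted p = 0.000316, limma), a step that only 2.14% of tested genes exceeded in size. Day 21 lay above day 0 by 0.50 (adjusted p = 0.0221), but not without day 0 replicate 2 (0.41, adjusted p = 0.147) or without day 21 replicate 2 (0.34, adjusted p = 0.174).

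The ratio of Sgce to Peg10 normalized counts in the same library, not divided by length, was compared over days only. It was 0.793 and 0.965 on day 0, 1.41 and 1.75 on day 7, 2.78 and 3.48 on day 14, and 1.52 and 1.29 on day 21. The ranges of day 7 and day 21 overlapped, and day 14 was highest in both libraries. Peg10 has the longer transcript, and the day 14 libraries carry a trend over length described further on. With that trend removed, the log2 changes from day 7 to day 14 were -0.05 for Sgce and -0.49 for Peg10, whereas with the trend in place Sgce was at -0.02 and Peg10 fell by 1.00. The gap between the neighbours at day 14 was therefore smaller once the trend was removed.

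Ndn, Peg3 and Mest are read from the paternal copy. Ndn encodes necdin, a MAGE-family protein that restrains proliferation. It held 2399.7 and 2389 normalized counts on day 0, 2148 and 2238 on day 7, 1579.8 and 1689 on day 14, and 1941 and 1844 on day 21, so the 4 days did not overlap and day 14 was lowest. The step from day 0 to day 7 was -0.13 ± 0.09 (SE) on the log2 scale (adjusted p = 0.242). It fell by 0.42 from day 7 to day 14 (adjusted p = 0.00184, limma), and day 21 remained below day 0 by a log2 change of -0.34 (adjusted p = 0.00533). Per kilobase of its longest transcript, Ndn was the most abundant of the 10 at day 0, at 648 normalized counts, followed by Grb10 at 449 and Sgce at 235. At day 21 Sgce stood at 531, Ndn at 512 and Cdkn1c at 478 per kilobase, where Cdkn1c had been at 12.6 at day 0.

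Peg3 encodes a large zinc-finger protein linked to growth and maternal behaviour, and its change rested on single libraries. It held 112 and 114 normalized counts on day 0, 130.3 and 109 on day 7, 86.6 and 45.6 on day 14, and 91.9 and 96.3 on day 21. Both day 14 libraries were below the rest, with replicate 2 lowest. It fell by 0.91 ± 0.25 (SE) on the log2 scale from day 7 to day 14 (adjusted p = 0.00905, limma) and lay below day 0 at day 14 by a log2 change of -0.84 (adjusted p = 0.00941). Without day 14 replicate 2 the first became -0.46 (adjusted p = 0.0774) and the second -0.38 (adjusted p = 0.1). The first was also lost without day 7 replicate 1 (-0.78, adjusted p = 0.0759). Without day 14 replicate 1 the second grew to -1.29, and the step from day 14 to day 21, which was 0.57 with all libraries (adjusted p = 0.0928), became 1.03 (adjusted p = 0.00139). Its other differences, 0.07 from day 0 to day 7 and -0.26 from day 0 to day 21, did not pass the test (adjusted p = 0.818 and 0.384).

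Mest encodes a protein of the hydrolase fold family that enlarges fat cells and is used as a marker of imprinting. It held 91.6 and 95.4 normalized counts on day 0, 108 and 81.1 on day 7, 51.0 and 65.5 on day 14, and 49.1 and 90.5 on day 21. The day 21 libraries were far apart, with replicate 1 below both day 14 libraries and replicate 2 above them. The differences from day 7 to day 14, -0.69 ± 0.27 (SE) on the log2 scale (adjusted p = 0.048), and from day 0 to day 14, -0.68 (adjusted p = 0.0372), passed the test narrowly. The first lost its call without day 0 replicate 1 (adjusted p = 0.0671), day 0 replicate 2 (0.0674), day 7 replicate 1 (0.282), day 7 replicate 2 (0.0555) or day 14 replicate 1 (0.18). The second lost it without day 0 replicate 1 (0.099), day 0 replicate 2 (0.127) or day 14 replicate 1 (0.158). Day 21 against day 0 was -0.48 (adjusted p = 0.143), and -0.91 without day 21 replicate 2 (adjusted p = 0.0125). Day 21 against day 7 was -0.49 (adjusted p = 0.287), and -0.92 without that library (adjusted p = 0.0479). Of 3945 exon bases of Mest, 912 (23.1%) are shared with Copg2 on the opposite strand, so its reads are uncertain where strand was not used in counting.

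Dlk1, a paternally expressed membrane protein of the Notch ligand family that holds back fat cell formation, was close to undetected. It had 2 and 0 reads on day 0, 4 and 4 on day 7, 7 and 0 on day 14, and 2 and 6 on day 21. The ratio of day 21 to day 0, corrected for depth, was 4.11, with a 95% interval from 0.82 to 39.7, and that of day 7 to day 0 was 3.64, from 0.726 to 35.2. Both intervals cover counting error only and include 1, so a change of Dlk1 was not detectable at this depth.

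Counted over the comparisons, the imprinted genes did not move as a block. By day 7, Cdkn1c, Plagl1 and Sgce had risen and Grb10 had fallen, 4 of the 9 tested genes (44.4%), where 55.4% of all tested genes were called, 27.5% higher and 27.9% lower. Their share lay below that of all genes, and their median log2 change was 0.07 against -0.01 for all tested genes. From day 7 to day 14, Cdkn1c and H19 rose and Plagl1, Grb10, Peg10, Ndn, Peg3 and Mest fell, 8 of 9 (88.9%), where 52.0% of all tested genes were called, 25.0% higher and 27.0% lower. Their median log2 change in that step was -0.69, and that of all genes was -0.0005. The count of 8 became 7 with upper quartile scaling, with DESeq2, or with the trend over length and GC content described further on removed. It was also 7 with no filter, with a replicate block and without the intensity trend in limma. The calls of Peg3 and Mest in this step also rested on single libraries, as given above. From day 14 to day 21, Peg10 and Grb10 rose and H19 fell, 3 of 9 (33.3%), near the 34.5% of all tested genes called, 20.2% higher and 14.3% lower. That count was 5 without day 14 replicate 1 and 2 without day 14 replicate 2 or without day 21 replicate 2.

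Against day 0, all 9 tested genes were called at day 14, with Cdkn1c, Plagl1, Sgce and H19 higher and Grb10, Peg10, Ndn, Peg3 and Mest lower. The count of 9 became 8 with upper quartile scaling, with DESeq2, with no filter or without the intensity trend in limma. It became 7 with the trend over length and GC content removed. The calls of Peg3 and Mest also rested on single libraries, as given above. At day 14, 70.7% of all tested genes were called, 35.2% higher and 35.6% lower, so a call was common. The largest changes of the 9 at day 14 were the 41.5-fold rise of Cdkn1c (log2 change 5.31, adjusted p = 3.19e-11), the rise of Plagl1 by 2.74 on the log2 scale (adjusted p = 1.35e-07) and the 3.42-fold rise of H19 (adjusted p = 3.28e-06). Grb10 was lower by a log2 change of -1.37 (adjusted p = 3.98e-07) and Peg10 by -0.83 (adjusted p = 0.000724, limma). At day 21 against day 0, 5 were higher and 2 lower, 77.8% of 9 against 59.4% of all tested genes, of which 29.8% were higher and 29.5% lower. Peg3 and Mest were the 2 that did not pass the test. Between day 7 and day 21 only Cdkn1c, higher, and Plagl1, lower, were called, 22.2% of 9 against 8.74% of all tested genes, 5.46% higher and 3.28% lower. That count was 1 without day 7 replicate 1, day 7 replicate 2 or day 21 replicate 1, and 3 without day 21 replicate 2.

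**Figure D2:**
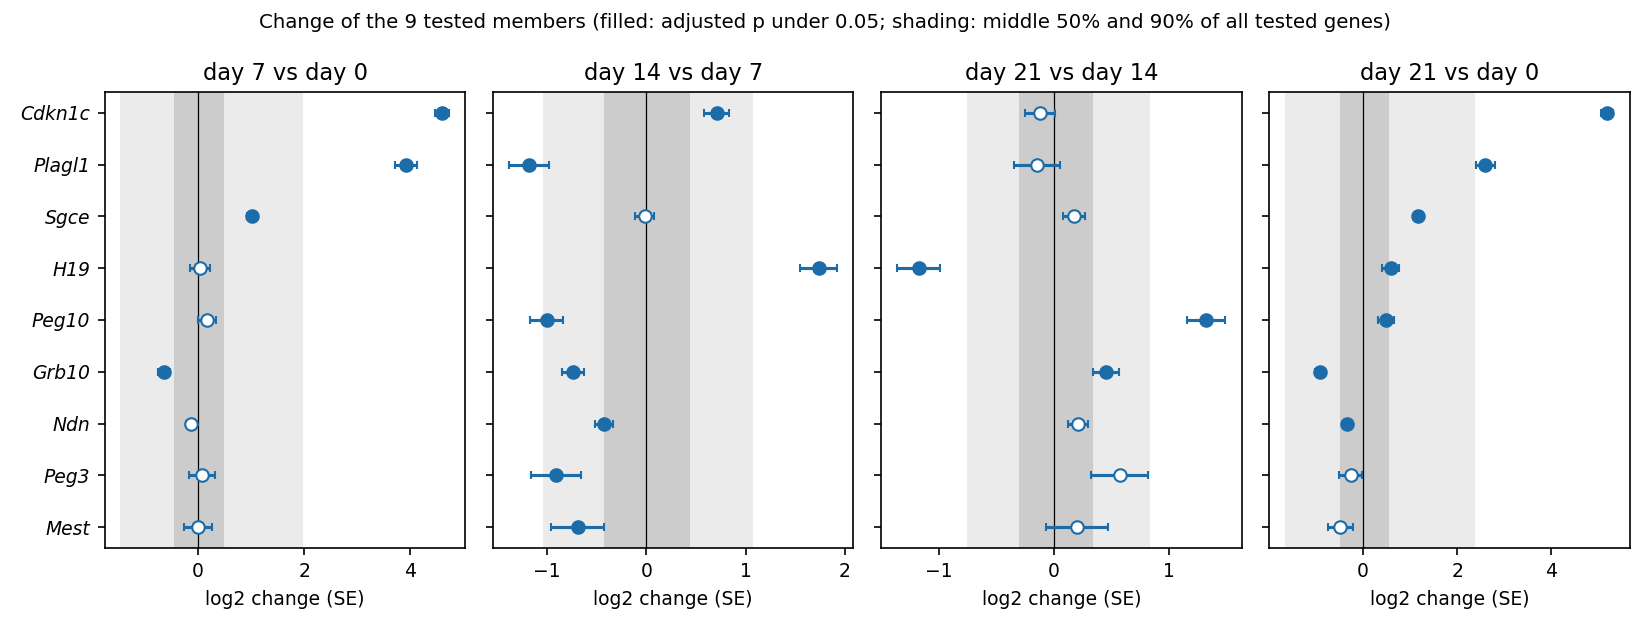
log2 change with its standard error (horizontal axes, a scale of its own per panel) of the 9 tested imprinted genes (vertical axis) for 4 comparisons of days. Filled circles have an adjusted p under 0.05, and the shading covers the middle 50% and 90% of all tested genes. Cdkn1c and Plagl1 lie outside the shading at day 7 against day 0 (4.60 and 3.92), H19 at day 14 against day 7 (1.73), and Peg10 lies at 1.33 and H19 at -1.18 at day 21 against day 14.

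The day 14 libraries differed from the others in a way that followed transcript length, which bears on the longer imprinted genes. Across 13420 tested genes with a known length, the log2 change from day 7 to day 14 went down by 0.37 with each doubling of the longest transcript, and that from day 14 to day 21 went up by 0.24. From day 0 to day 7 the slope was -0.01. Day 21 was not free of the trend, with a slope of -0.14 against day 0 and -0.13 against day 7. Between the 2 day 14 libraries the slope was -0.15, between those of day 21 it was 0.07, and between those of day 0 it was -0.01. Peg3 at 8694 bases, Peg10 at 6667, Plagl1 at 5260, Grb10 at 5061 and Sgce at 4416 are longer than the median tested gene, at 3359.5 bases, while H19 at 2286 and Cdkn1c at 1901 are shorter.

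With the trend over length and GC content removed in each library, H19 still rose from day 7 to day 14 by 1.62 on the log2 scale (adjusted p = 0.00015, limma) and Cdkn1c by 0.55 (adjusted p = 0.00133). Plagl1 was then lower by a log2 change of -0.85 (adjusted p = 0.00396) and Ndn by -0.46 (adjusted p = 0.000858). The falls of Grb10 and Peg10 shrank to -0.41 (adjusted p = 0.00253) and -0.49 (adjusted p = 0.00968), and the fall of Peg3 to -0.29, which did not pass the test (adjusted p = 0.276). At day 14 against day 0, Peg3 (-0.13, adjusted p = 0.573) and Peg10 (-0.27, adjusted p = 0.076) also lost their calls. The rise of Peg10 from day 14 to day 21 was 0.98 (adjusted p = 0.000609), that of Grb10 was 0.24 (adjusted p = 0.0474) and that of Ndn, also 0.24, passed the test (adjusted p = 0.0353). With the trend removed, Peg10 was also higher at day 21 than at day 7, by 0.48 (adjusted p = 0.0365). The first-week rise of Sgce and those of Cdkn1c and Plagl1 kept their calls.

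**Figure D3:**
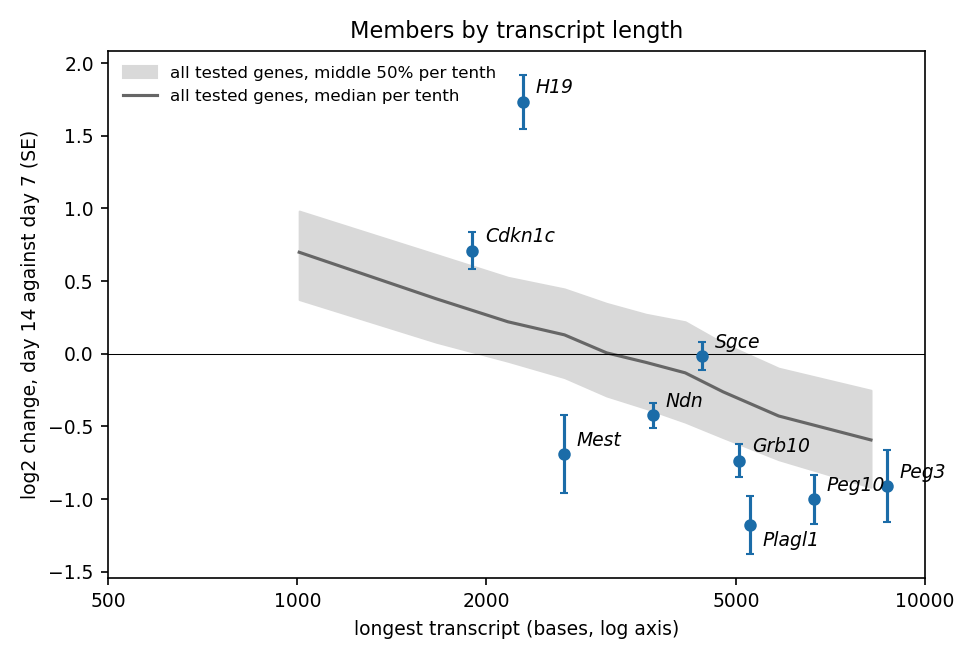
log2 change from day 7 to day 14 with its standard error (vertical axis) of the 9 tested imprinted genes against the bases of their longest transcript (horizontal log axis). The line is the median and the band the middle 50% of all tested genes in 10 classes of length, from 0.70 in the shortest class to -0.59 in the longest. H19 lies farthest above the band and Mest and Plagl1 farthest below it.

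Other genes of the same clusters were listed as neighbours. Of 42 neighbours listed, 40 were in the table and 22 were tested; at day 21 against day 0, 8 were higher, 8 lower and 6 not called, with a median log2 change of -0.24. At day 7 against day 0, 7 were higher and 5 lower. These counts are near the shares of all tested genes, of which 59.4% were called at day 21 and 55.4% at day 7, so nothing about the neighbours as a group is read from them. Igf2, the paternally expressed growth factor beside H19, held 10.4 and 15.7 normalized counts on day 0, 71.1 and 67.8 on day 7, 98.4 and 100.5 on day 14, and 90.8 and 143 on day 21. It rose already in the first week, by 2.35 ± 0.26 (SE) on the log2 scale (adjusted p = 8.41e-06), a week in which H19 differed by 0.03, and it did not fall detectably from day 14 to day 21 (0.19, adjusted p = 0.59), where H19 fell. The difference between the 2 genes was not tested.

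Near Cdkn1c, the long noncoding RNA Kcnq1ot1, read from the paternal copy, held 8.76 and 6.54 normalized counts on day 0, 15.5 and 15.2 on day 7, 48.3 and 57.3 on day 14, and 21.4 and 17.5 on day 21. It rose to day 14, by 2.64 on the log2 scale against day 0 (adjusted p = 8.40e-06), and fell by 1.40 to day 21 (adjusted p = 0.00552). Slc22a18, a transporter gene of that cluster, rose in the first week by 1.45 on the log2 scale (adjusted p = 1.27e-05). It was 1.55 higher at day 21 than at day 0 (adjusted p = 5.60e-06). Cd81, a tetraspanin gene farther along, was not called at day 21 against day 0 (-0.08, adjusted p = 0.474). At day 14 it was narrowly called lower than at day 0 (-0.23, adjusted p = 0.0496). Phlda2, a placental growth brake there, had at most 3 reads over a day. Asb4, beside Sgce and Peg10, was 2.13 higher at day 21 (adjusted p = 1.06e-06, limma).

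At the Dlk1 cluster the maternally expressed noncoding RNA Meg3 was above Dlk1 at each day. Per kilobase of longest transcript, the means were 20.8 against 0.685 normalized counts at day 14, but 2.24 against 0.857 at day 21. Meg3 held 95.5 and 68.0 normalized counts on day 0, 82.9 and 71.3 on day 7, 282 and 323 on day 14, and 42.7 and 22.4 on day 21. It rose by 1.96 on the log2 scale from day 7 to day 14 (adjusted p = 0.000147) and fell by 3.24 to day 21 (adjusted p = 2.41e-05), below its day 0 level by a log2 change of -1.35 (adjusted p = 0.000929). H19, Meg3 and Kcnq1ot1, noncoding RNAs of 3 clusters, were each highest at day 14, but Rian, another noncoding RNA of the Dlk1 cluster, added here after its values were seen, was not. Its mean was 395 normalized counts at day 0, 214 at day 7, 289 at day 14 and 155 at day 21, and it was lower at day 14 than at day 0 by a log2 change of -0.46 (adjusted p = 0.0276). Usp29, which starts head to head with Peg3, had no read in any library.

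**Figure D4:**
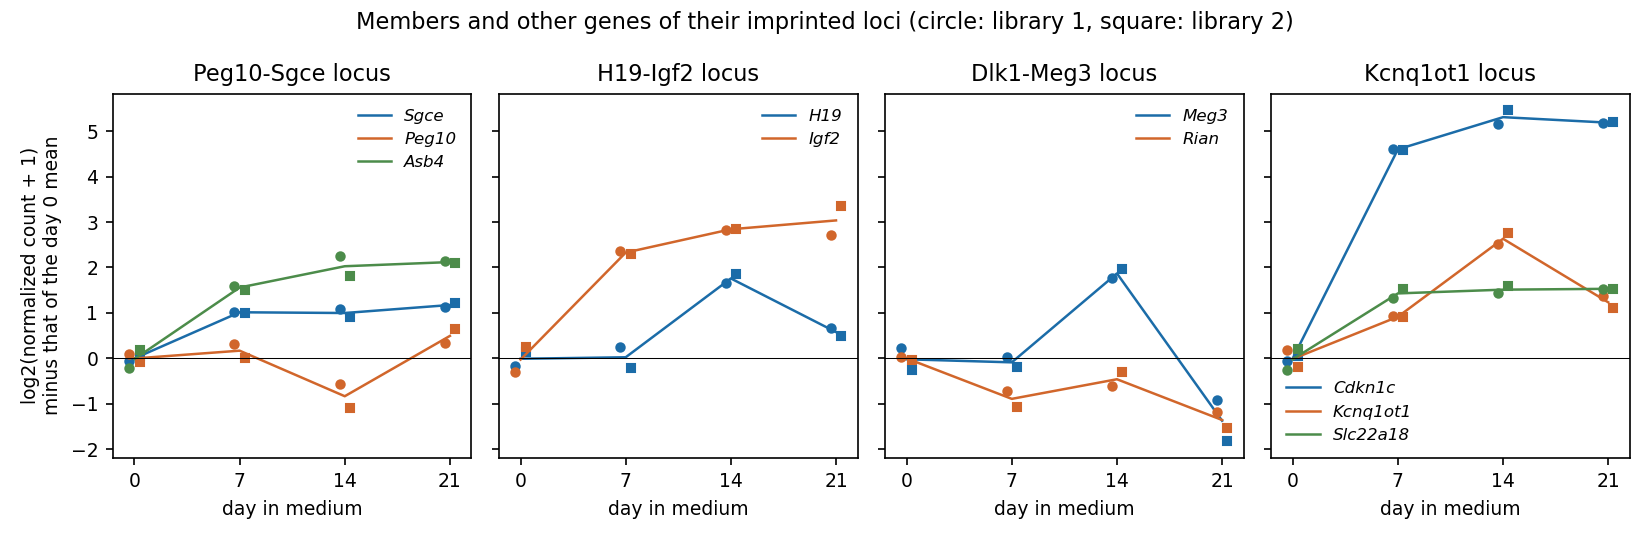
log2(normalized count + 1) minus the day 0 mean (vertical axis) against day in medium for genes of 4 imprinted clusters, circles for library 1 and squares for library 2, lines through the means. The fitted log2 change from day 0 to day 7 was 2.35 for Igf2 and 0.03 for H19. Sgce and Peg10 differ from day 7 on and most at day 14, and H19, Meg3 and Kcnq1ot1 are highest at day 14.

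Of 23 other imprinted genes, 16 were tested, and 3 were higher and 7 lower at day 21 against day 0, near the 59.4% called among all tested genes. The largest changes were those of Sfmbt2, a Polycomb-type gene (log2 change -2.58, adjusted p = 0.000992), and Dcn, the matrix proteoglycan decorin (2.46, adjusted p = 2.03e-08). Igf2r, the receptor that clears IGF-2, came next (-1.44, adjusted p = 3.48e-07). H13 was the most abundant one not called at day 21 (-0.09, adjusted p = 0.421), though it was lower at day 14 than at day 0 (-0.28, adjusted p = 0.015, limma). Of 18 genes that keep or read imprint marks, 16 were tested, and 10 were lower and 1 higher at day 7 than at day 0, with a median log2 change of -0.63, where 27.9% of all tested genes were lower and 27.5% higher. Uhrf1, which guides the maintenance methylase to newly copied DNA, was at a log2 change of -4.52 at day 21 against day 0 (adjusted p = 8.87e-09), Hells was at -2.85 (adjusted p = 2.44e-06) and Ezh2 at -2.15 (adjusted p = 1.29e-07). Ctcf, the insulator protein of the H19 and Igf2 control region, was not called at day 21 against day 0 (-0.16, adjusted p = 0.279, limma). At day 14 it was lower than at day 0 (-0.41, adjusted p = 0.00877). Methylation was not measured.

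Genes were also counted for the processes on which Cdkn1c and Grb10 act. Of 19 cyclins, cyclin-dependent kinases and other inhibitors of them, all tested, 12 were lower and 3 higher at day 7 than at day 0, and 11 lower and 3 higher at day 21, with a median log2 change of -0.92 there. Of all tested genes, 27.9% were lower at day 7 and 29.5% at day 21. Cdk1 was at -2.44 (adjusted p = 3.00e-09) and Ccna2, a cyclin of S phase, at -2.16 (adjusted p = 4.32e-08) at day 21 against day 0, and Cdkn2a, the inhibitor gene of p16 and p19, was at 2.18 (adjusted p = 2.51e-08). Ccnd1 was not called (0.01, adjusted p = 0.959). Of 19 genes of the insulin and IGF receptor pathway, all tested, 10 were higher and 5 lower at day 7, 4 higher and 10 lower at day 14, and 9 higher and 5 lower at day 21, each against day 0. The median log2 change of that list was 0.36, -0.33 and 0.49 on those days. The day 14 libraries also carry the trend over length, and the list was not counted with that trend removed. Of all tested genes, 55.4% were called at day 7 and 59.4% at day 21. At day 14 the share was 70.7%, with 35.2% higher and 35.6% lower. Those that changed most at day 21 against day 0 were IGF-binding proteins, secreted carriers of IGFs: Igfbp3 (5.68, adjusted p = 6.91e-10), Igfbp6 (3.90, adjusted p = 2.93e-08) and Igfbp4 (2.63, adjusted p = 5.23e-09). Grb14, a relative of Grb10, was not called at day 21 against day 0 (-0.16, adjusted p = 0.15, limma). It was lower than at day 0 at day 7 (-0.49, adjusted p = 0.000482) and at day 14 (-0.39, adjusted p = 0.00184).

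The genes whose course was most like that of each imprinted gene were found among 10754 genes with a mean of at least 50 normalized counts, by the distance between log2 profiles centred on their own means over the 8 libraries. Cdkn1c was closest to Apoe, the lipid carrier apolipoprotein E (distance 0.45), and Tmem252 (0.52). H19 was closest to Fbxl5, a ubiquitin ligase subunit that senses iron (0.48), and Pfdn5 (0.55), and Plagl1 to the transporter gene Abca8a (1.09) and to Cyp26b1, which degrades retinoic acid (1.16). By this distance, which also grows with the size of the changes, Plagl1 had the least similar closest gene of the 9. By Pearson r over the 8 libraries it did not. That r was 0.98 for Plagl1 with Abca8a and lowest for Mest, at 0.93 with Sh2b2. Grb10 was closest to Rbm15b (0.15) and Zcchc11 (0.18), Sgce to Agtrap (0.18) and Cdk8 (0.20), and Ndn to Rap2a (0.12) and Csnk1d (0.15). Peg10 was closest to the collagen receptor gene Itga1 (0.41) and Cpeb3 (0.43), Peg3 to Mob1a (0.21), and Mest to Sh2b2 (0.41) and Cdk18 (0.49).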

How the data were processed

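Total RNA of 8 libraries was sequenced from standard Illumina libraries, per the labels' protocols. Genome build mm9, TopHat2 2.0.11, HTSeq 0.6.1 and DESeq (no version) were used by the authors, per the submitters' processing notes, which give no role for each. Strandedness, gene annotation and medium components are not stated in the labels. The authors deposited a signal for each gene symbol, its read count after division by the size factor of the library. Dividing by each library's smallest step gave whole reads for 100% of values, within 0.01 reads. Of 24015 symbols, 5936 had no read.

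Values were used as log2(value + 1), so fold changes of low genes are understated. Differences between days were fitted with limma 3.58.1 (trend, two-sided) over all 8 libraries, with 4 residual and 8.16 prior degrees of freedom, after a filter of at least 10 normalized counts in at least 2 libraries. Benjamini-Hochberg adjustment covered 13527 genes, with calls under 0.05. Errors with log2 changes are standard errors. The fit was tested on simulated data with the same dispersion in every gene and library and with changes at day 7 alone. That simulation does not cover the wider spread between the libraries of day 14 and of day 21. The 10 genes and all lists were chosen with earlier results of these data known, and no list was tested as a set.

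All 10 genes are named. From each list, up to 3 called genes with the largest change of day 21 against day 0 and a mean of at least 50 at 1 day are named, with the most abundant uncalled gene, and Igf2, Meg3, Usp29, Phlda2 and Kcnq1ot1 always. The closest genes, 2 for each tested imprinted gene, leave out predicted models and RIKEN names, and 1 of them is not reported here. Transcript lengths and GC content came from the longest transcript in GENCODE M21, matched for 23638 symbols (98.4%), 929 of them through a RefSeq synonym. Alternatives were 2 other pseudocounts (0.5 and 5), no filter or a minimum of 50, TMM and upper quartile scaling, only the 4 libraries compared, a replicate block, no trend, edgeR 4.0.16 and DESeq2 1.42.0 on the recovered reads, removal of the length and GC trend, and leaving out each library. The software was R 4.3.3, Python 3.11.15 and matplotlib 3.10.9.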

Additional observations from a re-analysis of the deposited data

How the results depend on the processing

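Of 33 changes of the imprinted genes that passed the test, 24 kept their call and direction under all 20 alternatives, 9 lost the call under at least 1, and 0 reversed. Of the 21 that did not pass, 6 passed under at least 1 alternative. Calls lost to a left-out library or to the length and GC trend are given with the genes. Beyond those, without the intensity trend in limma, Cdkn1c at day 21 against day 7 (adjusted p = 0.06) and Peg10 at day 21 against day 0 (0.0871) lost their calls, and Grb10 at day 21 against day 14 did so in a fit of only those 4 libraries (0.0503). Mest at day 14 against day 0 lost its call with no filter (0.0688), upper quartile scaling (0.0703), no trend (0.0778) and DESeq2 (0.0591), and at day 14 against day 7 with no filter (0.0898), upper quartile scaling (0.0617), no trend (0.0954) and DESeq2 (0.0671). The cause was not tested. Upper quartile scaling moved the median of all genes at day 14 against day 0 by 0.11 on the log2 scale, the one shift over 0.1.

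Sign changes were confined to differences that had not passed the test. With the length and GC trend removed, Mest at day 7 against day 0 became -0.0318 and Peg3 at day 21 against day 0 became 0.0046, and with upper quartile scaling Sgce at day 14 against day 7 became 0.0359. Leaving out each library in turn gave ranges that crossed 0 for 7 differences: Cdkn1c at day 21 against day 14 (-0.28 to 0.0351), H19 at day 7 against day 0 (-0.19 to 0.26), Mest at day 21 against day 14 (-0.23 to 0.64), Mest at day 7 against day 0 (-0.20 to 0.21), Peg3 at day 7 against day 0 (-0.0546 to 0.20), Plagl1 at day 21 against day 14 (-0.44 to 0.14), Sgce at day 14 against day 7 (-0.11 to 0.0818).

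The number of all tested genes called at day 21 against day 14 was 2635 in a fit of only those 4 libraries, against 4664, and between 2302 and 5735 with each library left out. At day 21 against day 7 it was 739 with no filter and 467 without the trend, against 1182, and between 262 and 2188 with each library left out. The imprinted genes called numbered between 2 and 5 and between 1 and 3 in those comparisons with each library left out, and 1 without the trend at day 21 against day 7. The differences between the 2 libraries correlated between days at -0.04 to 0.07 over the tested genes. Low correlations cannot exclude that equal replicate numbers mark pairs, which the labels do not state. With a replicate block, 4, 7, 3, 9, 7 and 2 of the imprinted genes were called (day 7 against 0, 14 against 7, 21 against 14, 14 against 0, 21 against 0 and 21 against 7), and Mest at day 14 against day 7 was the change lost (adjusted p = 0.0553).

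With 2 libraries a day, leaving 1 out assumes that the other varies like the rest. Dlk1 had at most 8 reads over a day, and Peg3, with 39 reads in 1 day 14 library, was also thinly covered.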
